A study of Gallus gallus with 60 samples.

Results

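The neuropeptide genes of the laying hen cerebrum were examined as 10 named members, namely NPY, VIP, PENK, TAC1, CCK, SST, POMC, CRH, GAL and the CRH receptor gene CRHR2. A member was taken as each row of the deposited expression table whose first probe set the array platform names with one of these symbols. Each of the 10 symbols had 1 row, out of 20398 rows with data. All 10 rows were among the 16317 rows tested, whose mean over all hens reached the 20th percentile of the row means (5.08 on the log2 scale). The rows were picked by name alone and by no measured value, although the list of genes was chosen with earlier results of these data known.

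Neuropeptides are cut from larger precursor proteins, stored in dense-core vesicles and released by neurons to act on G protein-coupled receptors, often beside a fast transmitter such as GABA or glutamate. CRH starts the hormonal stress response by driving pituitary release of corticotropin, which is itself cut from POMC, and it also acts within the brain. Many of the other peptides mark separate classes of neurons in the forebrain, so that their level in a piece of tissue depends on which classes are in it as well as on how strongly each class expresses the gene.

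The samples were 60 hens aged 65 to 68 weeks, with 1 array of cerebral RNA per hen and no repeated arrays. The groups were 14 Lohmann Selected Leghorn (LSL) hens from compartments of 54 hens, 16 LSL hens from compartments of 36 hens, 16 Lohmann Brown (LB) hens from compartments of 54 and 14 LB hens from compartments of 36. LSL is a white and LB a brown commercial layer line, all hens were kept in the same kind of small group housing, and no treatment was given. The tissue was the posterior cerebrum without meninges, given by the labels as the right side and by the study's methods as both sides, and the methods describe the sampled hens as chosen for high or low signs of stress, which the labels do not record. Several hens came from 1 compartment, and each compartment housed a single line at a single group size. P-values computed over hens may thus be too small, and intervals too narrow. In bulk tissue, fewer cells of a type and less RNA per cell cannot be told apart.

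The arrays fell into a set of 42 (20 LSL and 22 LB hens) and a set of 18 (10 LSL and 8 LB hens) along the first principal component, which held 24.5% of the variance left after group means were removed. The sets were found in the data and carry no label. In the numbering of the samples, the set of 18 was hens 1 to 6 and 11 to 22, so the sets ran with sample order. What that order stands for is not given by the labels. The array medians were equal to within rounding, 6.86 in every hen. Of 8 listed telencephalic markers, 4 had a named row, and all 4 rows were tested. NEUROD6 averaged 10.74 ± 0.18 in LSL and 10.63 ± 0.30 in LB hens (log2, SD, n = 30 each). BCL11B averaged 10.17 ± 0.12 in LSL and 10.15 ± 0.10 in LB hens. TBR1 averaged 8.38 ± 0.22 in LSL and 8.26 ± 0.21 in LB hens. EMX2, nearer to the limit on row means, averaged 5.67 in both lines. By limma 0 of the 4 rows passed between lines (adjusted p of 0.129 or higher), beside 22.8% of all tested rows. TBR1 alone had an unadjusted p under 0.05 (0.0401, limma). With only 4 rows, the absence of calls does not show that the tissue was alike in the lines.

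Between the lines, CRHR2 and PENK were higher in LSL than in LB hens, and the other 8 members did not pass the test. CRHR2 was higher by 0.13 ± 0.03 (SE) and PENK by 0.35 ± 0.13 on the log2 scale, which correspond to 1.09-fold and 1.28-fold. These 2 of 10 calls stand beside 22.8% of all 16317 tested rows called in either direction and 10.8% called higher in LSL (limma, Benjamini-Hochberg adjusted p under 0.05), so the share of members called was close to that of all rows. The median size of the line difference was 0.07 over the members and 0.06 over all tested rows.

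**Figure D1:**
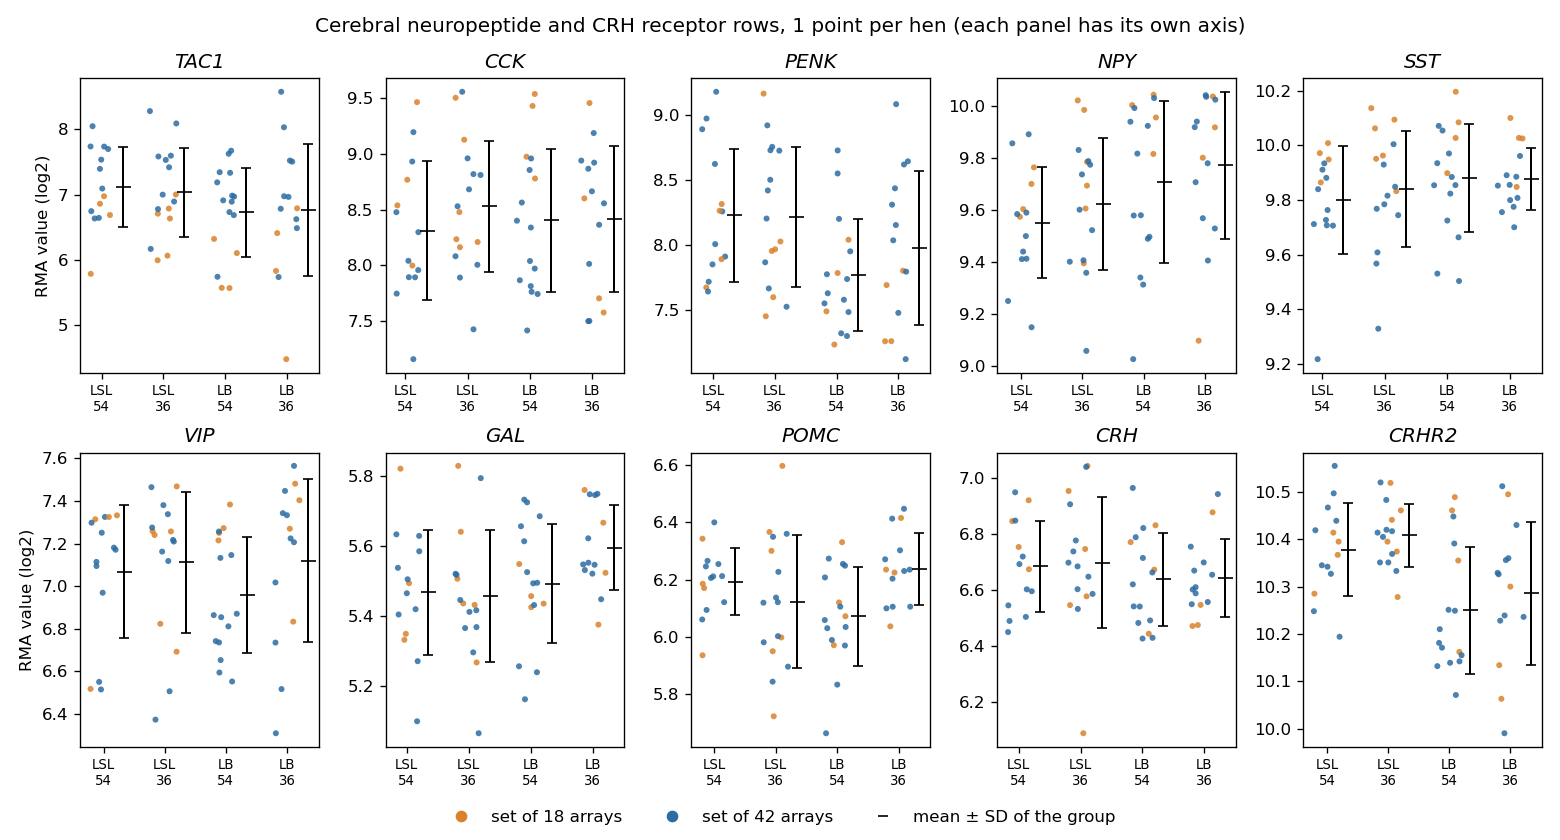
RMA values (log2, vertical axis, a separate scale for each gene) of the 10 members in each of the 60 hens, grouped along the horizontal axis by line and compartment size, with points coloured by array set and bars giving mean ± SD of each group. LSL hens sit high for CRHR2, whereas TAC1 and CCK spread over more than 2 log2 units within each line.

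CRHR2 encodes the type 2 receptor, which binds urocortins and, less strongly, CRH, and which in chicken pituitary carries the CRH signal that releases thyrotropin. Its lowest, median and highest values were 10.19, 10.38 and 10.56 in the LSL hens from 54 and 10.28, 10.41 and 10.52 in the LSL hens from 36. In the LB hens they were 10.07, 10.20 and 10.49 for 54 and 9.99, 10.31 and 10.51 for 36. The ranges of the lines overlapped at the top, but 29 of 30 LSL hens lay above the LB median and 6 of 30 LB hens lay above the LSL median.

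The line averages of CRHR2 were 10.39 ± 0.08 in LSL and 10.27 ± 0.14 in LB hens (SD, n = 30 each, adjusted p = 0.0011). Layer line accounted for 23.8% of the variance of this row, the highest share among the members. The difference was of like size in the 54 hens (0.13 ± 0.05) and the 36 hens (0.12 ± 0.04), although with fewer hens neither passed the test (adjusted p = 0.067 and 0.073). With consecutively numbered hens of a group as a random block, a stand-in for the unlabelled compartments, CRHR2 was the only member called (adjusted p = 0.0090), where 17.0% of all rows were called.

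Within the set of 42 arrays the CRHR2 difference was 0.14 ± 0.04 (adjusted p = 0.0022), and within the set of 18 it was 0.09 ± 0.06 (adjusted p = 0.471). CRHR2 was also the least variable member, with an SD between hens of 0.12 within line and group size, which 12.1% of tested rows fell below. The row combines 12 probe sets. The absolute deviation of LSL hens from their group median averaged 0.05 less than that of LB hens (SE 0.02, unadjusted p = 0.0208, adjusted p = 0.691), which did not pass the test.

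CRH itself, the releasing peptide, averaged 6.69 ± 0.20 in LSL and 6.64 ± 0.15 in LB hens. The difference of 0.05 had a 95% interval of -0.04 to 0.14 and an adjusted p of 0.468. Its lowest, median and highest values were 6.09, 6.69 and 7.04 in LSL and 6.43, 6.61 and 6.97 in LB hens. The lowest of them was a single LSL hen from a compartment of 36, the next lowest LSL hen being at 6.45, and without it the SD between hens was 0.16 instead of 0.18.

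POMC, the precursor of corticotropin, melanocortins and beta-endorphin, had a line difference of 0.01 (95% interval -0.09 to 0.10, adjusted p = 0.945). Its medians by group ran in opposite directions in the lines. They were 6.21 in LSL 54 and 6.12 in LSL 36 hens, and 6.07 in LB 54 and 6.23 in LB 36 hens. The line difference was 0.24 ± 0.09 larger among the 54 hens than among the 36 hens, with an unadjusted p of 0.0100 that became 1 after adjustment over all rows. Of 16 listed hypothalamic and pituitary markers, 12 had a named row and 9 rows were tested. PMCH, TSHB and CGA, with row means of 3.65, 3.92 and 5.08, fell below the limit on row means. Of the 9 tested rows, 1 was higher in LSL, 1 was lower and 7 did not pass, beside 22.8% called over all tested rows. PRL, encoding prolactin, was higher in LSL (5.98 ± 0.18 in LSL, 5.77 ± 0.21 in LB, adjusted p = 0.0015), and NKX2-1, a transcription factor gene of the ventral forebrain and hypothalamus, was lower (6.34 ± 0.13 in LSL, 6.50 ± 0.16 in LB, adjusted p = 0.0014). Both stayed past the threshold with hen pairs as a block (adjusted p = 0.0093 for PRL and 0.0075 for NKX2-1). The PRL row averaged 5.87 over all hens, and the limit of 5.08 is a percentile of row means, not a detection call. Among the rows that did not pass, GH, encoding growth hormone, was 6.86 ± 0.25 in LSL and 6.90 ± 0.29 in LB hens. The mean of the 9 rows ranged over 6.04 to 6.31 in LSL hens and 6.06 to 6.39 in LB hens, and its part in the POMC values was not tested.

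CRHR1, CRHBP, UCN and UCN3, the closest partners of CRH, had no named row and were not analysed here. Of the wider stress axis list, 12 rows were tested, 2 were higher in LSL, 0 were lower and 10 did not pass, beside 22.8% of all tested rows called. The 2 were both receptors of corticosterone. NR3C1, the glucocorticoid receptor gene, averaged 8.12 ± 0.18 in LSL and 7.91 ± 0.12 in LB hens, and NR3C2, the mineralocorticoid receptor gene, averaged 10.12 ± 0.18 in LSL and 9.87 ± 0.20 in LB hens (adjusted p = 6.65e-05 for NR3C1 and 5.96e-05 for NR3C2). Both also passed with the hen pairs as a block (adjusted p = 0.0015 for NR3C1 and 0.00022 for NR3C2). Genes that glucocorticoid receptors are known to induce, TSC22D3, SGK1 and DUSP1, did not pass (limma, adjusted p = 0.638, 0.184 and 0.196). Their differences were -0.03, -0.10 and 0.12, without a shared direction. The activity of the receptors was not tested.

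**Figure D2:**
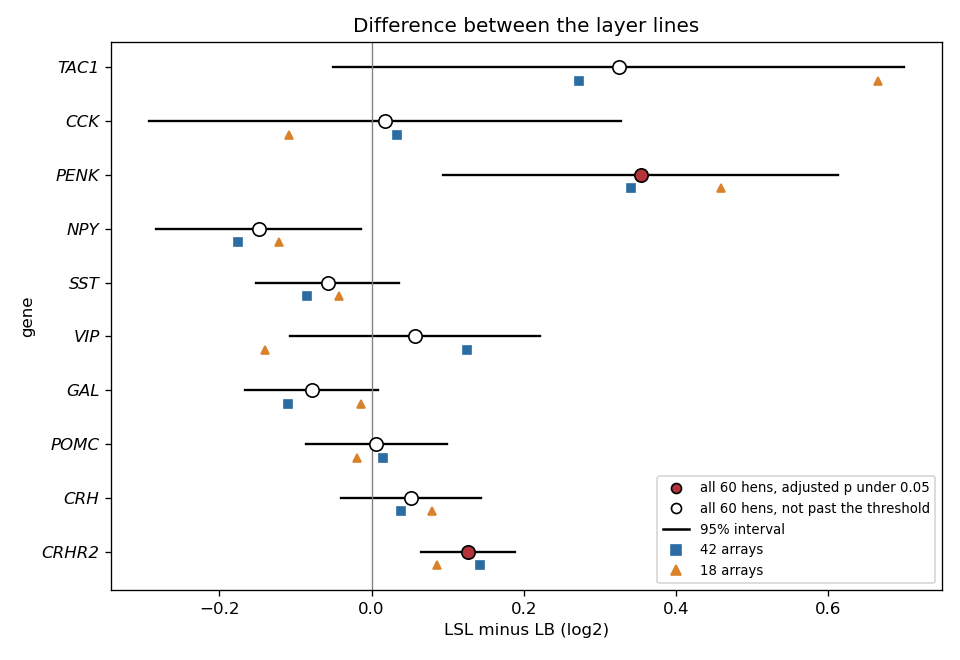
Difference between LSL and LB hens for each member (horizontal axis, log2), with circles for all 60 hens, horizontal lines for the 95% interval, squares for the set of 42 arrays alone and triangles for the set of 18 alone. The intervals of CRHR2 and PENK lie above 0, as do their values in both sets, whereas VIP, CCK and POMC have opposite signs in the 2 sets.

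PENK, the precursor of the enkephalins, the endogenous ligands of delta and mu opioid receptors, had lowest, median and highest values of 7.65, 8.14 and 9.18 in the LSL 54 hens and 7.46, 8.12 and 9.17 in the LSL 36 hens. The LB values were 7.24, 7.69 and 8.73 for 54 and 7.13, 7.92 and 9.09 for 36. The lines overlapped over most of their range, and 23 of 30 LSL hens lay above the LB median. The line averages were 8.23 ± 0.52 in LSL and 7.87 ± 0.51 in LB hens (SD, n = 30 each, adjusted p = 0.0388).

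The PENK call was close to the threshold. Leaving out 1 hen at a time gave adjusted p of 0.0148 to 0.0607, past the threshold in 40 of 60 refits, with the difference between 0.32 and 0.40 throughout. With the hen pairs as a random block the adjusted p was 0.109, and with hen pairs and array set both in the fit it was 0.0298 (limma). The difference was 0.34 in the set of 42 arrays (adjusted p = 0.118) and 0.46 in the set of 18 (adjusted p = 0.141), and it was 0.46 among the 54 hens (adjusted p = 0.0672) and 0.24 among the 36 hens (adjusted p = 0.517). The row combines 2 probe sets, the fewest of the members.

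In mammals PENK marks the striatal projection neurons that carry the D2 dopamine receptor and the adenosine receptor ADORA2A. Of the striatal marker list 4 rows were tested and 2 were higher in LSL, where 22.8% of all tested rows were called and 10.8% were higher in LSL, namely ADORA2A (7.38 ± 0.22 in LSL, 7.18 ± 0.22 in LB, adjusted p = 0.0060) and DRD1, the D1 dopamine receptor gene (8.63 ± 0.17 in LSL, 8.47 ± 0.24 in LB, adjusted p = 0.0211). With hen pairs as a block ADORA2A stayed past the threshold (adjusted p = 0.0365) and DRD1 did not (adjusted p = 0.0917). With the array set as a block instead, both passed (limma, adjusted p = 0.0025 and 0.0106), beside 29.1% of all tested rows. The mean of the 4 striatal rows ranged over 8.56 to 9.10 in LSL hens and 8.43 to 8.84 in LB hens. Across hens, after centring on line, group size and array set, PENK had r of 0.06 with ADORA2A, -0.03 with DRD1, 0.33 with PDE10A and 0.10 with FOXP1, the 4 tested striatal rows. The GABAergic interneuron list had 6 tested rows. Of these, 0 were higher in LSL, 2 were lower and 4 did not pass, beside 22.8% of all tested rows called. The lower rows were SLC32A1, the vesicular GABA transporter gene, at 9.79 ± 0.17 in LSL and 10.01 ± 0.24 in LB hens (adjusted p = 0.0011) and GAD2, a GABA-synthesising enzyme gene, at 9.58 ± 0.25 in LSL and 9.76 ± 0.27 in LB hens (adjusted p = 0.0395). With hen pairs as a block SLC32A1 stayed past the threshold (adjusted p = 0.0048) and GAD2 did not (adjusted p = 0.0712). With the array set as a block instead, 3 of the 6 rows passed, beside 29.1% of all tested rows. They were SLC32A1, GAD2 and PVALB (limma, adjusted p = 9.49e-07, 0.0025 and 0.0358). SLC32A1 and GAD2 serve GABAergic neurons in general, striatal projection neurons among them, and are not particular to interneurons. The other 4 rows, PVALB, DLX5, CALB2 and LHX6, did not pass in the main fit (limma, adjusted p of 0.181 or higher). Across hens PENK had r of 0.52 with GAD2, 0.29 with CALB2, 0.28 with SLC32A1, 0.21 with PVALB, 0.18 with DLX5 and 0.07 with LHX6. The mean of the 6 tested rows of the GABAergic interneuron list ranged over 8.63 to 9.11 in LSL and 8.63 to 8.96 in LB hens. The part of either list in the PENK difference was not tested.

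TAC1, the precursor of substance P and neurokinin A, varied more between hens than any other member. It ran over 5.78 to 8.05 (median 7.03) in the LSL 54 hens and 5.99 to 8.28 (median 6.94) in the LSL 36 hens. In LB hens it ran over 5.57 to 7.67 (median 6.90) for 54 and 4.47 to 8.58 (median 6.78) for 36. Both the lowest and the highest hen were LB 36 hens, 17.2-fold apart on the linear scale, and the lowest was the only hen below the limit used for the row means. The lines overlapped almost fully, with averages of 7.07 ± 0.64 in LSL and 6.74 ± 0.84 in LB hens and a difference of 0.33 ± 0.19 (SE, adjusted p = 0.226).

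TAC1 differed more between the array sets than between the lines. It ran over 4.47 to 7.00 (median 6.36) in the set of 18 and 5.73 to 8.58 (median 7.14) in the set of 42, and the set accounted for 32.4% of its variance, against 4.67% for line. With the array set as a block, the line difference was 0.39 ± 0.15 (adjusted p = 0.0453), and 3 of 10 members (CRHR2, PENK and TAC1) were called where 29.1% of all rows were. With hen pairs and array set both in the fit, TAC1 did not pass (adjusted p = 0.0758).

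NPY, which stimulates feeding in birds and is made by a class of GABAergic neurons in the forebrain, was lower in LSL than in LB hens on average, without passing the test. Its lowest, median and highest values were 9.06, 9.60 and 10.02 in LSL and 9.03, 9.82 and 10.04 in LB hens. The averages were 9.59 ± 0.23 in LSL and 9.74 ± 0.29 in LB hens, and the difference of -0.15 ± 0.07 had an unadjusted p of 0.0316 and an adjusted p of 0.109. The highest values of the lines were nearly equal, and 5 of 30 LSL hens lay above the LB median, whereas 19 of 30 LB hens lay above the LSL median.

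SST, encoding somatostatin, which inhibits growth hormone release and marks another class of GABAergic neurons, averaged 9.82 ± 0.20 in LSL and 9.88 ± 0.16 in LB hens (difference -0.06 ± 0.05, adjusted p = 0.427). Its values followed the array sets. All 18 hens of the smaller set lay between 9.83 and 10.20, whereas the 42 others ran over 9.22 to 10.07, and the set accounted for 29.9% of the variance against 2.50% for line. SST was thus higher in the set of 18 by 0.22, where TAC1 was lower by 0.93. The sets hold similar numbers of each line, and what separated them was not tested.

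CCK, the precursor of cholecystokinin, a satiety peptide of the gut that is also made by many pallial neurons, gave no call between lines. It averaged 8.43 ± 0.60 in LSL and 8.41 ± 0.63 in LB hens, with a difference of 0.02 and a 95% interval of -0.29 to 0.33. Each of the 4 groups spanned almost the whole range, 7.16 to 9.46 in LSL 54, 7.43 to 9.55 in LSL 36, 7.42 to 9.53 in LB 54 and 7.50 to 9.45 in LB 36 hens. Line accounted for 0.02% of the variance and the array set for 8.9%, so that most of the variation lay between hens of 1 line in 1 set.

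VIP, which releases prolactin in birds, averaged 7.09 ± 0.32 in LSL and 7.03 ± 0.33 in LB hens (adjusted p = 0.683), with a difference of 0.13 in the set of 42 arrays and -0.14 in the set of 18. GAL, encoding galanin, averaged 5.46 ± 0.18 in LSL and 5.54 ± 0.16 in LB hens. Its difference of -0.08 ± 0.04 did not pass (adjusted p = 0.204), although 23 of 30 LB hens lay above the LSL median. The GAL row lay 0.42 above the limit on row means, nearer to it than any other member, and 1 LSL hen from 36 fell below that limit.

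Between compartments of 54 and 36 hens, 0 of 10 members and 0 of 16317 rows (0%) passed the test (limma, Benjamini-Hochberg), and the unpaired t-test of the methods also called 0. At an unadjusted p under 0.05 there were 888 rows by limma, 898 by the t-test and 0 members by either. The smallest unadjusted p among the members was 0.199, for VIP, which averaged 7.01 ± 0.29 in the 54 hens and 7.12 ± 0.35 in the 36 hens (difference -0.11, 95% interval -0.27 to 0.06). The widest interval was that of TAC1, with a difference of -0.00 and bounds of -0.39 and 0.38, and the narrowest was that of CRHR2, -0.11 to 0.03. Each interval gives the differences between group sizes that these 30 and 30 hens do not exclude.

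For the dependence of the line difference on group size, 0 of 10 members and 0 of 16317 rows (0%) passed by limma. At an unadjusted p under 0.05 there were 802 rows and 1 member, POMC, described above. The difference of POMC between 54 and 36 hens was 0.07 ± 0.07 among LSL hens alone (adjusted p = 0.999) and -0.17 ± 0.06 among LB hens alone (adjusted p = 0.554).

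The members differed widely from each other in their spread between hens. The SD between hens within line and group size was 0.76 for TAC1, 0.62 for CCK and 0.52 for PENK, which lay at the 99.6th, 99.3rd and 98.3rd percentiles of the SDs of all tested rows. VIP (0.33) and NPY (0.27) lay at the 89.4th and 81.0th percentiles. SST (0.19), CRH (0.18), POMC (0.17) and GAL (0.17) were close to the median row, whose SD was 0.18. The TAC1, CCK and PENK rows combine 5, 4 and 2 probe sets, and the median tested row combines 7. CRH and POMC, near the median SD, combine 3 each. The part of probe set number in these SDs was not tested.

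**Figure D3:**
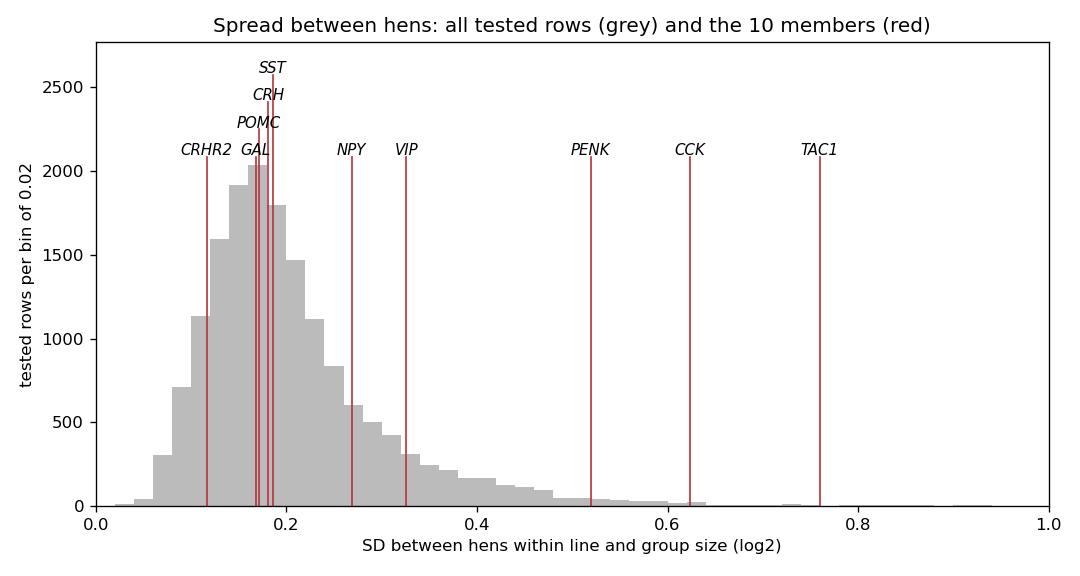
Number of tested rows (vertical axis) by SD between hens within line and group size (horizontal axis, log2), with a red line at each member. TAC1, CCK and PENK lie in the right tail, CRHR2 lies left of the peak, and the other members lie between.

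These high SDs did not rest on 1 hen or on the array sets alone. Without the hen farthest from its group mean, the SD was 0.70 for TAC1, 0.61 for CCK and 0.50 for PENK. With the array sets also removed it was 0.62 for TAC1, 0.58 for CCK and 0.50 for PENK, at the 99.6th, 99.4th and 98.7th percentiles. The test of unequal spread between LSL and LB hens called no member (limma, 0 of 10, smallest adjusted p = 0.691, 1 member at an unadjusted p under 0.05), where 0.215% of all rows passed, 35 of 16317 (950 at an unadjusted p under 0.05).

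No correlation was found among the 3 most variable members over all 60 hens, which does not show that they vary separately. After centring on line, group size and array set, Pearson's r over the 60 hens was 0.06 between TAC1 and PENK, -0.00 between TAC1 and CCK and 0.01 between CCK and PENK. In the sets of 42 and 18 arrays, r was 0.13 and -0.20 for TAC1 with PENK. It was -0.12 and 0.32 for TAC1 with CCK, and 0.03 and -0.05 for CCK with PENK. All 45 pairs of members were compared, with p from 100000 permutations within line, group size and array set. With Benjamini-Hochberg adjustment over the pairs, 3 pairs passed by both r and Spearman's rho. The share passing among pairs of other tested rows was not computed, so these relations are not shown to be particular to the members.

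CCK and CRHR2 were the most closely related pair, with r = 0.52 and rho = 0.48 (adjusted permutation p = 0.0040 and 0.0149). The r was 0.46 in the set of 42 arrays, 0.67 in the set of 18, and 0.56 without the 2 hens farthest from the median of CCK. CCK and SST were opposed, with r = -0.45 and rho = -0.43 (adjusted permutation p = 0.0099 and 0.0225), r = -0.42 in the set of 42, -0.61 in the set of 18 and -0.42 without 2 hens. NPY and PENK rose together with r = 0.41 and rho = 0.40 (adjusted permutation p = 0.0226 and 0.0404), r = 0.44 in the set of 42, 0.29 in the set of 18 and 0.41 without 2 hens, so that this pair rested mostly on the larger set. Another 4 pairs passed by r and not by rho, namely NPY with CCK, CCK with GAL, SST with GAL and POMC with GAL.

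**Figure D4:**
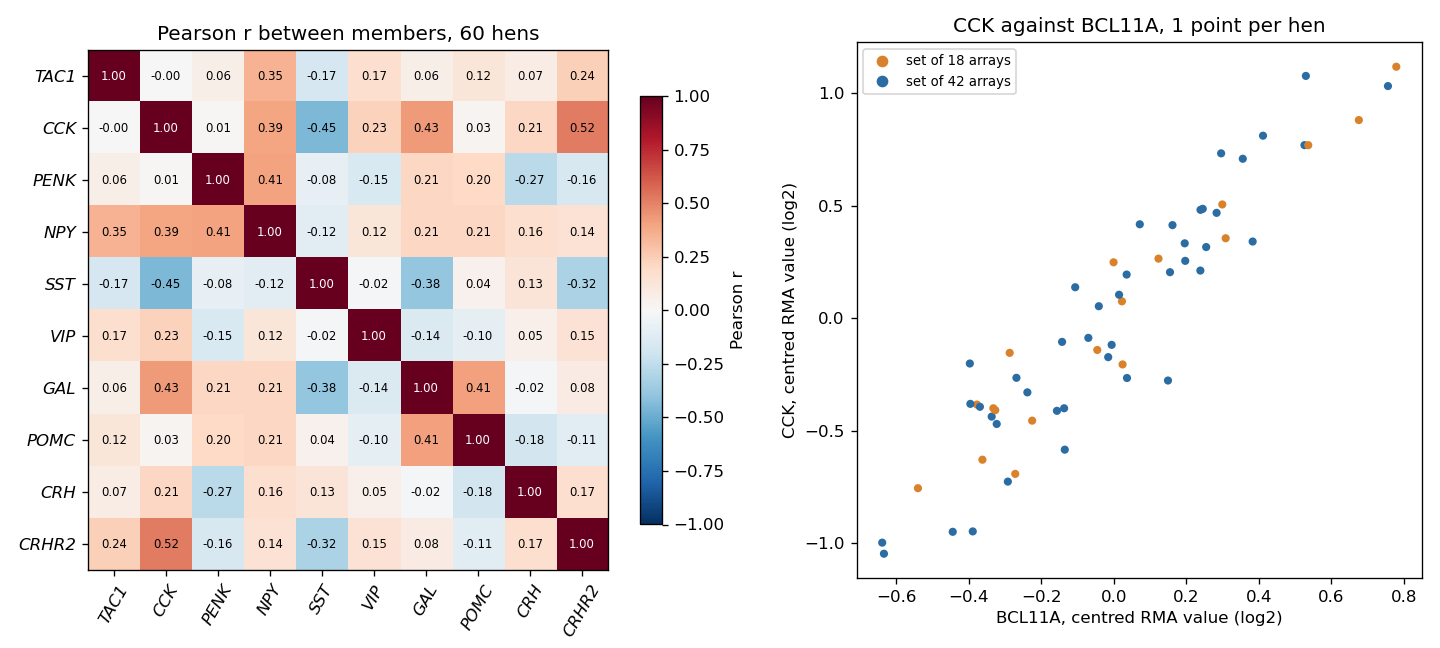
Left, Pearson's r between the members over 60 hens after centring on line, group size and array set, coloured and printed in each cell. Right, centred CCK value (vertical axis, log2) against centred BCL11A value (horizontal axis, log2), 1 point per hen coloured by array set, where the points of both sets lie along 1 line (r = 0.94).

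The named genes whose centred values followed each member most closely were taken from 7443 other tested rows with 1 gene symbol. They are given as a description without a test, since all share the same 60 arrays and pieces of tissue. CCK had the closest companions, namely BCL11A, a zinc finger transcription factor gene (r = 0.94), CADPS2, which primes dense-core vesicles for release (r = 0.92), and RSPO3, a secreted activator of Wnt signalling (r = 0.90). In the sets of 42 and 18 arrays the r of CCK with BCL11A was 0.93 and 0.96. There were 59 rows with r above 0.7 to CCK, and RTN4RL1 ran most strongly against it (r = -0.82). Of the marker rows, FOXP1, a transcription factor gene of striatal and some pallial neurons, had r = 0.83 with CCK and NEUROD6, a transcription factor gene of pallial neurons, had r = 0.67. Of the other rows of the same marker lists, TBR1 had r = 0.42 with CCK, PDE10A 0.26 and EMX2 0.09. The rest ran against CCK, with r of -0.59 for DRD1, -0.48 for ADORA2A and -0.42 for BCL11B. Neither list thus followed CCK as a whole. The list of genes that cut, package and degrade peptides, to which CADPS2 belongs, did not follow CCK as a whole either. Its CHGB row had r = -0.76 with CCK, its CHGA row 0.26 and its CPE row 0.03.

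PENK was followed by RASGRP1, an activator of Ras signalling (r = 0.83, with 0.88 in the set of 42 and 0.68 in the set of 18). SOSTDC1, a secreted antagonist of BMP and Wnt signalling, and WFS1, a protein gene of the endoplasmic reticulum, each had r = 0.67 with PENK, and RASGRP1 was the only row above 0.7. TAC1 was followed by TMEM200A (r = 0.76), FAM19A2 (r = 0.73) and FIGN (r = 0.72), and 6 rows lay above 0.7. Among the listed genes, PVALB, the parvalbumin gene of fast-spiking interneurons, had r = 0.70 with TAC1, and NPY2R, an NPY receptor gene, had r = -0.66. The pallial gene NEUROD6 had r = 0.58 with TAC1, SGK1 had r = -0.65 and DRD1 had r = -0.50. A second PVALB row, with a mean of 4.64, was not tested. The other tested rows of the GABAergic interneuron list had r with TAC1 of 0.27 (SLC32A1), 0.27 (GAD2), 0.18 (LHX6), 0.02 (CALB2) and -0.00 (DLX5). The interneuron list thus did not follow TAC1 as a whole. FIGN was also the closest row to NPY, with r = 0.61 (0.51 in the set of 42 and 0.84 in the set of 18).

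VIP was followed by HOXA11 (r = 0.89), MIR1648 (r = 0.81) and HMGN1 (r = 0.81), and an ACTB row, a common reference gene of the cytoskeleton, ran most strongly against it (r = -0.79). HOXA11 is a homeobox gene of the limb and trunk and is not known as a forebrain gene. CRHR2 was followed by HTR2C, a serotonin receptor gene (r = 0.72), LDB2 (r = 0.65) and ACVR2B, an activin receptor gene (r = 0.63). SST was followed by TNFAIP8L3 (r = 0.69), CDH22 (r = 0.67) and KCNC2, a potassium channel gene of fast-spiking interneurons (r = 0.65). The r of SST with KCNC2 was 0.71 in the set of 42 and 0.30 in the set of 18.

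GAL was followed by CHD2 (r = 0.71), N4BP3 (r = 0.65) and RRBP1 (r = 0.61). The closest rows to CRH were PAICS (r = 0.58), FLRT2 (r = 0.57) and SEMA6A (r = 0.55), and those to POMC were ACTL9 (r = 0.54), SIX6 (r = 0.53) and ANO9 (r = 0.53). Spearman's rho of the POMC rows was 0.45, 0.44 and 0.43. These rows are the highest of 7443, and how high r runs among that many unrelated rows was not computed. The r of CRH with PAICS was unlike in the sets, 0.37 in the set of 42 and 0.83 in the set of 18. For NPY the next were TMEM196 (r = 0.56) and ST8SIA1 (r = 0.56). CRH, POMC and NPY were thus followed less closely by any named row than CCK, VIP or PENK were.

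The receptors of the member peptides were examined in the same fit. Of 23 tested receptor rows, 1 was higher in LSL, 5 were lower and 17 did not pass, a share of calls close to the 22.8% of all tested rows, and the median difference was -0.01. SSTR2, a somatostatin receptor gene, was higher (7.34 ± 0.18 in LSL, 7.20 ± 0.19 in LB, adjusted p = 0.0236). OPRD1, the delta opioid receptor gene and a receptor for the enkephalins cut from PENK, was lower (7.83 ± 0.22 in LSL, 8.02 ± 0.17 in LB, adjusted p = 0.0026). OPRM1, the mu opioid receptor gene, did not pass (9.20 ± 0.24 in LSL, 9.20 ± 0.29 in LB, adjusted p = 0.981). SSTR4 was lower with 6.69 ± 0.14 in LSL and 6.87 ± 0.23 in LB hens (adjusted p = 0.0039). GALR1, a galanin receptor gene, was lower with 5.34 ± 0.24 in LSL and 5.55 ± 0.27 in LB hens (adjusted p = 0.0099), and SSTR5 was lower with 8.74 ± 0.17 in LSL and 8.88 ± 0.19 in LB hens (adjusted p = 0.0192). NPY1R was the other lower row (difference -0.12, adjusted p = 0.0324). With hen pairs as a block 3 of these rows were called, OPRD1, SSTR4 and GALR1, where 17.0% of all tested rows were called. With the array set as a block instead, 7 of the 23 receptor rows were called, beside 29.1% of all tested rows.

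Of the other neuropeptide precursors, 23 of 49 listed genes had a named row and 16 rows were tested, of which 2 were higher in LSL, 1 was lower and 13 did not pass, a share of calls near the 22.8% of all tested rows. CALCA, the precursor of calcitonin and its related peptide, was 6.04 ± 0.18 in LSL and 5.87 ± 0.19 in LB hens (adjusted p = 0.0046), and NMB, encoding neuromedin B, was 6.67 ± 0.19 in LSL and 6.53 ± 0.21 in LB hens (adjusted p = 0.0343). EDN3, encoding endothelin 3, was 8.04 ± 0.17 in LSL and 8.19 ± 0.11 in LB hens (adjusted p = 0.0013). With hen pairs as a block CALCA and EDN3 stayed past the threshold (adjusted p = 0.0231 and 0.0085) and NMB did not (adjusted p = 0.0984). With the array set as a block instead, NMB passed as well (limma, adjusted p = 0.0099), beside 29.1% of all tested rows. The genes that cut, package and degrade peptides gave 0 calls in 15 tested rows by limma (1, CADPS2, at an unadjusted p under 0.05), beside 22.8% of all tested rows, with differences of 0.00 for the convertase gene PCSK2 and -0.04 for the carboxypeptidase gene CPE, and CADPS2, the companion of CCK, at 8.68 ± 0.47 in LSL and 8.42 ± 0.47 in LB hens (adjusted p = 0.103).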

How the data were processed

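Total RNA of the cerebrum of 60 hens was hybridised by the authors to Affymetrix chicken gene arrays, 1 per hen. The deposited values are log2 expression after RMA (background correction, quantile normalisation and summary of probe sets by the authors), and the submitters' processing notes name RMA without a version. No detection p was used, and the number of arrays limits the precision. Of 20399 rows, 1 empty row and 2 named control rows were left out; a second table held the same values. Rows were named by the platform symbol of the first probe set, updated through RefSeq (assembly GRCg7b, names only). Of the tested rows 7453 had 1 symbol, 81 several and 8783 none. Rows that the platform names MRPS26, of which GNRH2 is a synonym, were not counted among the precursors, and a row shared by 2 listed names was counted once. No genome build for the files is given in the sources used here.

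Each effect was fitted on its own, as in the study's methods, with limma 3.58.1 (R 4.3.3), lmFit and eBayes, two-sided, with Benjamini-Hochberg adjustment over the 16317 tested rows and a threshold of 0.05. Spread was tested with limma on absolute deviations from the group median. Correlations used NumPy 2.4.6. The limma steps were tested on simulated data. Alternatives covered the filter, array set, hen pair, covariates, the methods' t-test, subsets of hens and each hen left out. All members were named, with the 3 closest genes to each, and from each list up to 4 called genes per direction by adjusted p. Other genes of the lists, NPY1R among them, were named after their values were seen. Members and lists were chosen with earlier results of these data known.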

Additional observations from a re-analysis of the deposited data

How the results depend on the processing

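CRHR2 and PENK were the 2 members called between lines, and the same count of 2 came from no filter on low rows, a limit met in at least 1 array, group size as a covariate, the methods' t-test, a trended robust prior, and hen pairs with the array set. The count was 3 with the array set as a block, beside 29.1% of all rows. It was 1 when the hen pairs alone formed a random block, beside 17.0%. In the set of 42 arrays 1 member was called, beside 3668 of 16317 rows, and in the set of 18 arrays 0, beside 1184. The count was 0 in the hens from 54 and 0 in the hens from 36, beside 1824 and 1756 rows. These last 4 fits use fewer hens than the main fit, which called 3714 rows. Leaving out each hen in turn gave counts of 1 to 3, with 2 in 40 of 60 refits. CRHR2 passed in all 60 (adjusted p 0.00040 to 0.0020). PENK did not pass (adjusted p 0.0503 to 0.0607, difference 0.32 to 0.34) without LSL 54 hen 29, 30, 52 or 54, LSL 36 hen 4, 33, 34, 43 or 44, LB 54 hen 15, 16, 27, 38, 45, 50 or 57, or LB 36 hen 5, 19, 56 or 59, and NPY passed without LB 36 hen 19 (adjusted p = 0.0485) or LB 54 hen 28 (adjusted p = 0.0430). The cause of these changes was not tested. No member's call reversed, and group size, interaction and spread gave 0 members under each alternative run for them. No paired analysis was possible because the replicate numbers run over all 60 hens and no number is shared between groups. Numbered pairs had a consensus correlation of 0.313, and 0.142 with the array set in the fit, and 0 of 30 pairs were split between the sets. Quantile normalisation fixes the array medians, so a shift common to all genes would not be seen, and rows near the limit, such as GAL, can understate differences.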

Other observations

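MC5R, a melanocortin receptor gene that binds peptides cut from POMC, was picked out after its values were seen. Its lowest, median and highest values were 4.56, 5.20 and 7.62 in LSL hens and 5.18, 6.09 and 6.73 in LB hens (log2, n = 30 each). In 13 of 30 LSL hens and 0 of 30 LB hens it fell below the limit of 5.08 on row means. The SD was 0.95 in LSL and 0.35 in LB hens. The absolute deviation from the group median was 0.53 ± 0.13 (SE) larger in LSL hens, which did not pass the test over all rows (limma, adjusted p = 0.0793), and the line difference of -0.36 ± 0.18 did not pass either (adjusted p = 0.150).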
